A study of Mus musculus with 47 samples.

Results

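The cytosolic ribosomal protein genes were followed in single fast-twitch muscle fibres of WT and C2KO mice. Every gene whose symbol begins with Rpl or Rps and a digit was taken, together with Rplp0, Rplp1, Rplp2 and Rpsa, and names that begin with Rps6k or hold -ps were left out. This gave 88 of the 24421 genes in the files: 46 canonical large subunit genes, 31 canonical small subunit genes, 9 paralogs and 2 genes that are neither, Rpl37rt and Rps19bp1. FVB/N mice aged 2 to 3 months gave the fibres, which were taken from a shin muscle of mostly fast fibres, the extensor digitorum longus (EDL). Each library held the RNA of 1 intact fibre, freed with collagenase. There were 27 WT fibres from 3 mice and 20 C2KO fibres from 2 mice, and the labels tie no fibre to a mouse. C2KO mice lack Mybpc2, the gene of fast myosin binding protein-C, from the germline on, because a Neo cassette stands in place of a part of the gene. No treatment was given.

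Counts were summed into 5 pools that the labels separate: WT pools 1, 2 and 3 (10, 10 and 7 fibres, 1 sequencing run each) and the C2KO pools 740 and 2445 (10 fibres each, by the first part of the fibre name). A pool may hold fibres of several mice, so p-values measure only the spread between these pools. Run and genotype cannot be told apart except in run 0092, which held the 7 fibres of WT pool 3 and 1 fibre of C2KO 740. Gene counts per fibre ran from 7648762 to 14606631, and a floor of 3 counts then corresponds to at most 0.392 CPM, which are counts scaled to a library of equal size. Mybpc2 lay between 6563 and 11556 CPM in WT fibres and between 2.61 and 47.6 CPM in C2KO fibres, with no overlap. The fibres carried fast fibre genes, led by Atp2a1, the fast calcium pump, and Myh4, the type IIb myosin. Among erythrocyte markers no count fell on Hba-a1, a haemoglobin gene, and Alas2 had 0.183 CPM in WT and 0.115 CPM in C2KO pools. The summed level of 12 fibroblast markers reached 382 CPM in WT fibres and 368 CPM in the 2445 fibres. It reached 5229 CPM in the 740 fibres, where the median was 32.6 CPM. Endothelial markers reached 5.54 CPM in WT, 9.25 CPM in 2445 and 134 CPM in 740 fibres. Smooth muscle markers reached 7.17, 2.09 and 67.5 CPM in the same order.

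A ribosome has a large and a small subunit, and most canonical ribosomal proteins are needed once in nearly every ribosome. The small subunit reads the mRNA, and the large subunit joins the amino acids. Mammals have mostly 1 working gene for each protein, but many processed pseudogenes, which are intronless copies of the mRNA put back into the genome. A read that fits both the gene and such a copy has no unique place. Striated muscle is known for a paralog exchange, in which Rpl3l takes the place of Rpl3 in part of the ribosomes.

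Canonical genes of both subunits had like median levels, and single genes spread widely around them. To compare genes, CPM was divided by the exon length in kilobases (CPM per kb). Over the 77 canonical genes the median of the WT pool means was 57.96 CPM per kb, with 56.9 for the large subunit and 57.96 for the small subunit. The quartiles were 32.2 and 117 CPM per kb, and 61 of the 77 genes lay above 20 CPM per kb.

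**Figure D1:**
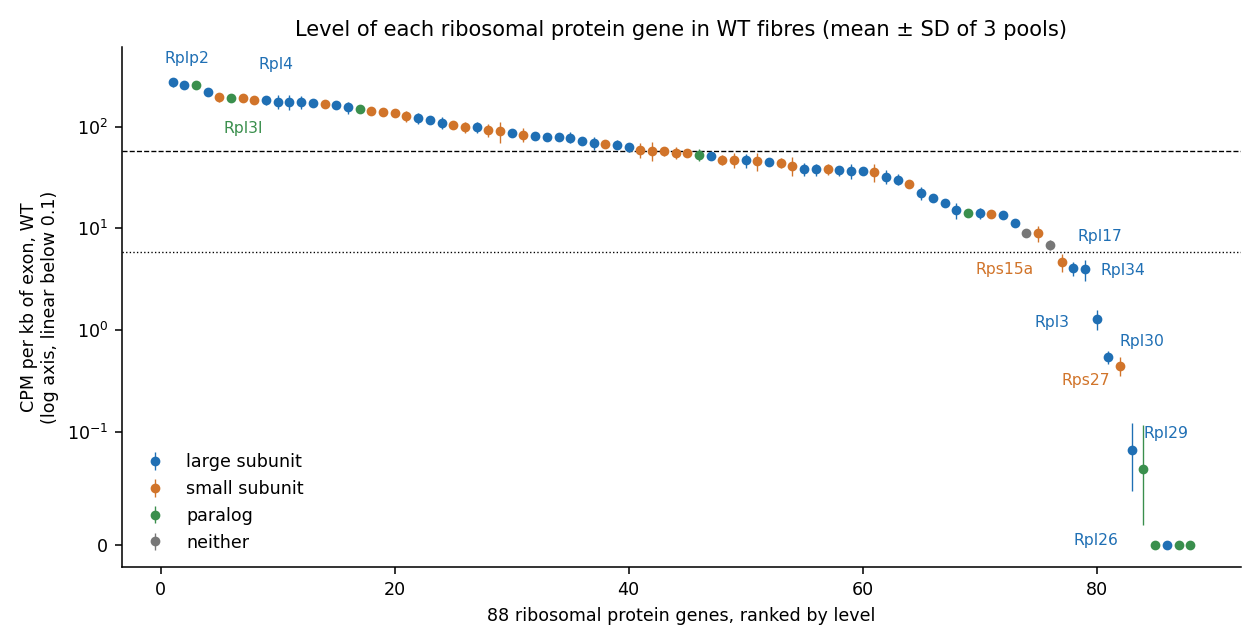
Level of each of the 88 genes in WT fibres in CPM per kb of exon (log axis, linear below 0.1), ranked; points are means of 3 pools and bars the SD. The dashed line is the canonical median of 57.96 and the dotted line is at 0.10 times that, 5.80, under which 8 canonical genes lie.

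Per kb of exon, the stalk of the large subunit, which recruits the elongation factors, led the list. Rplp2 stood at 274 ± 27.5 CPM per kb in WT pools (SD, n = 3) and Rplp0, the stalk base, at 258 ± 25.2. Rpl4, a core protein that lines the exit tunnel for the new chain, followed at 218 ± 8.27. Rplp1, the partner of Rplp2, had 173 ± 24.8 CPM per kb. Rplp2 was above Rplp0 in each of the 5 pools, for instance with 257.1 against 249.1 CPM per kb in WT pool 1. This order rests on their exon lengths in the files, 441 and 1360 bases. Per kb of principal GENCODE transcript Rplp2 had 125 CPM and Rplp0 258 in WT pools. Per kb of sequence found in no other gene they had 191 and 460, below Rpl36 (1129), Rpl9 (1073) and Rpl13 (925). Among small subunit genes Rps14 had the highest level, 195 ± 19.9 CPM per kb, and Rps25 the next, 190 ± 12.9. Their order was not the same in every WT pool, since Rps14 was the lower of the pair in WT pool 2.

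At the other end, 8 canonical genes lay under 0.10 times the median: Rpl26, Rpl29, Rps27, Rpl30, Rpl3, Rpl34, Rpl17 and Rps15a. All of them code for proteins of the standard ribosome. Rpl26 had 0 counts in all 47 fibres. Rpl29 had 0.0842 ± 0.0362 CPM per kb in WT pools, Rps27 0.445 ± 0.0958, Rpl30 0.539 ± 0.0782 and Rpl3 1.29 ± 0.284. Rpl34 and Rpl17 followed at 3.96 ± 0.944 and 4.02 ± 0.614. Rps15a, at 4.67 ± 0.9505, lay just under the threshold and carried an exon length of 5134 bases in the files. Rps12, at 8.91 ± 1.63, was the first canonical gene above it. The 8 genes were the same in each WT pool and in C2KO 2445, and in C2KO 740 they were the same without Rpl29.

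For 4 of these genes, the annotation used for counting laid a second gene name over their exons on the same strand. The counting program does not by default assign a read that overlaps exons of more than 1 gene. Rpl26 shared 95.8% of its exon bases with Gm15772, Rpl30 76.04% with Gm12191, Rpl34 59.9% with Rpl34-ps1 and Rps27 60% with Rps27rt. Among the other members Rps27rt was covered over 100% of its exon bases by Rps27, and Rpl13a shared 0.097% with Mir5121. All 4 second names had 0 counts in all 47 fibres. GENCODE vM21 and RefSeq, on the same genome build, place each of these copies on another chromosome. Gm15772 was at chr11:68901589-68904534 in the files, over Rpl26, and is at chr5:3236431-3236868 in GENCODE. Gm12191 was at chr15:34440506-34443233, over Rpl30, and is at chr11:49678710-49679057. Rpl34-ps1 was at chr3:130726837-130730329, over Rpl34, and is at chr6:71124610-71124963. Rps27rt was at chr3:90212667-90213647, over Rps27, and is at chr9:114982366-114982739.

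The start of the Rps27 coding sequence is given with its 2 relatives to show why a read cannot separate the first pair and can separate the other. Bases 1 to 60 are shown 5′ to 3′ from GENCODE vM21 (GRCm38, the build named mm10 in the files), with capitals where a base differs from Rps27.
Rps27: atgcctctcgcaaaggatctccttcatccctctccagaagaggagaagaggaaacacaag
Rps27rt: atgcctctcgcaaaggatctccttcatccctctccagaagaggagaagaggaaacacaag
Rps27l: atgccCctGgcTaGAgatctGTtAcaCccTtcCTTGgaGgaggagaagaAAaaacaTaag
Rps27rt had 0 differences in this stretch and Rps27l had 18. Over the whole coding sequence Rps27 and Rps27l were 76.1% identical, and their longest shared run was 11 bases. Rps27l (chr9:66946118-66949509, plus strand) was counted at 253 ± 19.9 CPM per kb in WT pools, above every canonical gene but Rplp2 and Rplp0. Rps27 had 11 counts or fewer in every fibre, so the levels of this protein's genes are not comparable in these counts.

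The other low genes had no such overlap. Uniquely placed reads were asked for, so the share of each transcript's 50-base windows that also occurs in a transcript of another gene was computed. For Rpl3 this was 85.6%, with 26 pseudogene copies. It was 66.8% for Rpl29, with 81 pseudogene copies, and 44.7% for Rpl17. For Rps15a it was 6.37% of a transcript of 5179 bases, with 9 pseudogene copies. The share was taken over 1 principal GENCODE transcript per gene, which can be longer than the exons counted, and a long transcript lowers it. Other genes with a high share had higher levels. Rpl9 shared 93.3% of its windows and stood at 68.1 CPM per kb, Rpl10a 88.1% at 38.04 and Rpl13 80.3% at 171. Of the 16 canonical genes that shared over 75% and had no overlapping name, 1 was among the low genes, and their median was 54.1 CPM per kb. The 11 genes that shared 1 to 25% had a median of 58.6. They include Rps20, with a transcript of 3706 bases against 502 bases of exon in the files. Rpl18, with 2989 against 679 bases, is also among them, so this grouping depends on the transcript taken. How much of each gene was lost to repeated sequence was not tested.

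**Figure D2:**
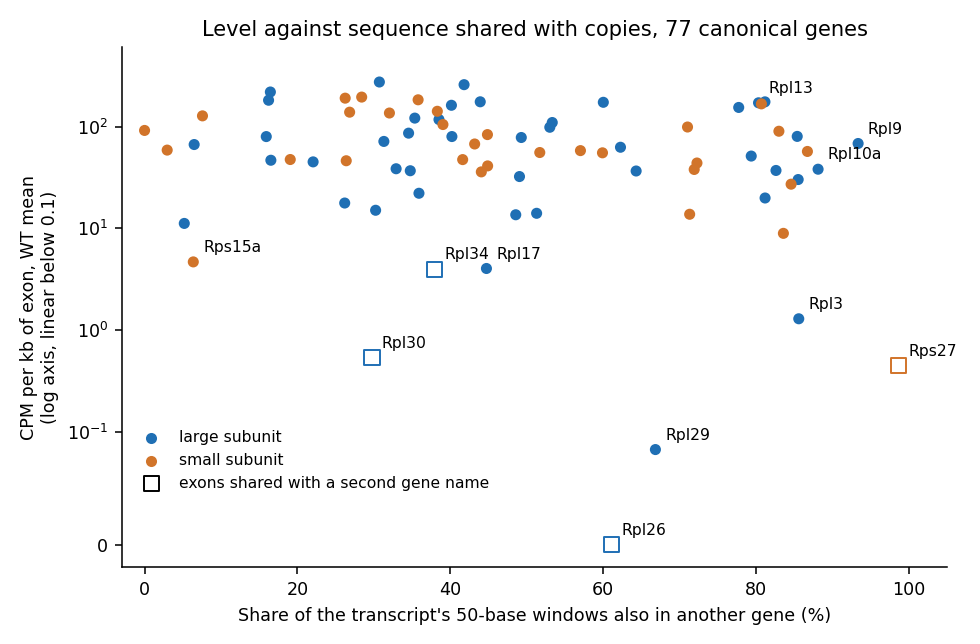
WT level (CPM per kb of exon, log axis, linear below 0.1) of the 77 canonical genes against the percentage of 50-base transcript windows also found in another gene. Open squares are the 4 genes whose exons lie under a second gene name, and all 4 are low; most other genes with a high percentage, such as Rpl9 and Rpl13, are not.

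Dividing by uniquely placed bases in place of exon length left 7 low genes. On that scale, chosen after the levels were seen, Rps27 left the group, because only 4 of its windows were unique. Rpl3 stood at 9.33 CPM per unique kb and its muscle paralog Rpl3l at 232. Rpl3 lies at chr15:80077781-80083406 on the minus strand, and Rpl3l at chr17:24727829-24736149 on the plus strand. The first 60 coding bases show how far the pair has drifted apart, and how close a pseudogene is, with capitals where a base differs from Rpl3.
Rpl3: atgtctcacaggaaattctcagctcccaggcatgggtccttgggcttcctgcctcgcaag
Rpl3l: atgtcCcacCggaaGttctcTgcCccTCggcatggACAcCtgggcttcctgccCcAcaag
Rpl3-ps1: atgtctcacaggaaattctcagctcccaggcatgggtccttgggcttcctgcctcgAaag
Rpl3l differed at 13 of these bases and the pseudogene Rpl3-ps1, on chromosome X, at 1. Across the coding sequence Rpl3 and Rpl3l were 73.4% identical with a longest shared run of 22 bases, and none of the Rpl3l windows occurred in another gene.

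Apart from Rps27l, 3 paralogs had a higher level per kb of exon than their canonical partner. Rpl3l reached 193 ± 3.27 CPM per kb in WT pools against 1.29 ± 0.284 for Rpl3. Rpl36al (chr12:69182734-69184067) stood at 149 ± 11.5 CPM per kb and Rpl36a at 30.1 ± 3.78. Per uniquely placed kb that order was turned, with 76.7 CPM for Rpl36al and 233.8 for Rpl36a. The transcript taken for Rpl36al on that scale had 1276 bases, against 517 bases of exon in the files. Rpl22l1 stood at 53.0 ± 7.59 CPM per kb and Rpl22 at 11.2 ± 0.924. For Rpl7 the order was turned, with 109 ± 14.6 CPM per kb against 14.2 ± 1.35 for Rpl7l1. Rpl10l, a gene known from the testis, had 0 counts in all 47 fibres, while Rpl10 stood at 79.95 ± 6.21 CPM per kb. Rpl39l, also known from the testis, had 2 counts in 1 fibre, and Rpl39 stood at 46.6 ± 7.48. Rps4l had 38 counts in all fibres together, against 43.8 ± 5.10 CPM per kb for Rps4x. Rpl37rt and Rps19bp1 stood at 9.01 ± 0.768 and 6.91 ± 0.802. Levels of genes that share sequence are uncertain in the way described above, and Rpl36a and Rpl22l1 shared 85.5% and 57.3% of their windows.

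The module as a whole took a small share of the counts, and the genotypes overlapped. All 88 genes together held between 0.390% (95% exact Clopper-Pearson interval 0.386 to 0.394%) and 0.656% (0.651 to 0.660%) of a fibre's gene counts. These intervals cover counting error only. The share was 0.501 ± 0.0401% over the 3 WT pools (SD of pool means) and 0.497 ± 0.0397% over the 2 C2KO pools, a log2 ratio of -0.01. Its sign rested on single pools, with -0.0940 without C2KO 740, 0.0691 without C2KO 2445 and 0.0539 without WT pool 3. Pool means were 0.493, 0.465 and 0.544% for WT pools 1 to 3, 0.525% for C2KO 740 and 0.469% for C2KO 2445. The highest and the lowest pool were both WT. Within run 0092 the 7 WT fibres ran from 0.459 to 0.590% and the C2KO fibre had 0.577%, inside that range.

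The proportion of large to small subunit genes lay in a narrow range in every pool. The summed CPM per kb of the large subunit genes was 1.46 ± 0.0107 times that of the small subunit genes in WT pools and 1.45 ± 0.0289 times in C2KO pools. The sums run over 46 large and 31 small subunit genes, so the ratio depends on the number of genes. It is not an excess per gene, since the WT medians were 56.9 and 57.96 CPM per kb. Pool means ran from 1.43 in C2KO 740 to 1.47 in C2KO 2445, with the 3 WT pools between them. Single fibres ran from 1.37 to 1.52 in WT and from 1.35 to 1.52 in C2KO. In run 0092 the C2KO fibre had 1.45, against 1.39 to 1.48 in the WT fibres. Across the fibres of a pool the sums of both subunits moved together, with Pearson's r from 0.892 (C2KO 2445, n = 10) to 0.997 (WT pool 2, n = 10). This is a description, since both sums of a fibre are scaled by the same library total. The fibres of C2KO 740 also came from several runs.

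**Figure D3:**
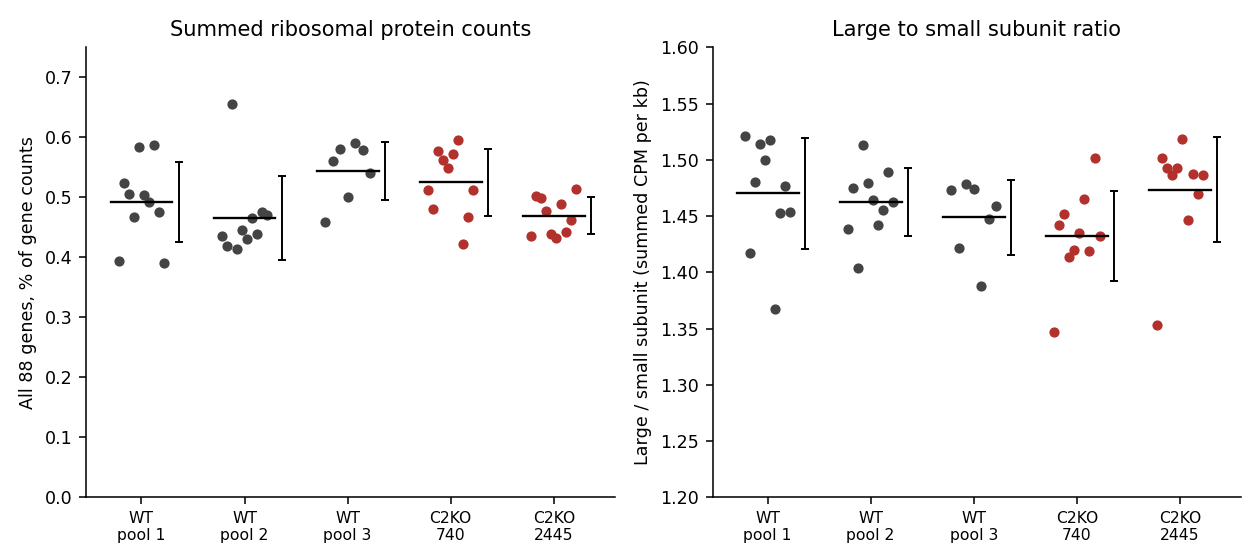
Left, counts of all 88 genes as a percentage of a fibre's gene counts; right, ratio of summed CPM per kb of large to small subunit genes (axis from 1.2 to 1.6). Each point is 1 fibre, lines are pool means and bars the SD over fibres; WT fibres (grey) and C2KO fibres (red) overlap in both plots.

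Single genes were about as variable between fibres of 1 pool as other genes of their level. For the 68 canonical genes of at least 10 CPM, the median coefficient of variation within a pool was 14.4%, with a range from 7.92% for Rpl21 to 22.1% for Rps21. Counting alone would give a median of 4.39%. The 5015 genes at like levels (13.7 to 351 CPM) had a median of 15.9% and quartiles of 12.7 and 20.4%. The steadiest genes after Rpl21 were Rpl24, Rpl6, Rps6 and Rpl4, between 8.23 and 9.29%.

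The C2KO and WT pools were then compared, to ask whether loss of fast myosin binding protein-C goes with a change in the protein part of the ribosome. No ribosomal protein gene was called. The test was edgeR's quasi-likelihood fit on pool sums over 12863 genes, and a call needed a Benjamini-Hochberg adjusted p under 0.05 and a fold over 1.5. It called 0 of 83 tested members in either direction, against 0.0466% of all genes tested. The 5 members that were not tested, Rpl10l, Rpl26, Rpl29, Rpl39l and Rps27rt, had too few counts in too many pools. The median log2 fold change, C2KO over WT, was 0.03 for the 83 members, 0.04 for the 44 large subunit and 0.03 for the 31 small subunit genes. Over all genes it was -0.00038. The median of the members was -0.03 without WT pool 2 and 0.12 without WT pool 3. It was 0.15 with fibres as replicates and run as a covariate, where the 1 C2KO fibre of run 0092 sets the difference. The log2 fold change was above 0 for 53 of the 83 members, against 49.9% of all genes.

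At an unadjusted p under 0.05 there was 1 member higher in C2KO, against 6.2% of all genes, and there were 2 lower, against 4.13%. The smallest adjusted p among members was 0.457. On TMM-scaled CPM, the scale of the fit, both C2KO pools lay above all WT pools for 5 members (Rpl10, Rpl22l1, Rpl30, Rpl36al and Rpl38) and below them for 6 (Rpl13a, Rpl37rt, Rpl3l, Rpl4, Rps15 and Rps26). These are smaller shares than the 13.1% and 14.5% of all genes. On CPM without that scaling the pools overlapped for Rpl22l1, Rpl38 and Rpl13a.

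A second fit took each fibre as a replicate. Fibres of 1 mouse are not independent, so p-values from that fit are too small. It gave 1 call among 80 members fitted, Rpl3, against 4.78% of 10156 genes. At an adjusted p under 0.05 without the fold limit, 6 members were higher, against 9.79% of genes, and 3 were lower, against 8.56%. The lower ones were Rpl4, Rpl3l and Rpl37rt, and the higher ones included Rpl22l1, Rpl36al and Rpl10. With run as a covariate no member was called, against 0.404% of genes.

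**Figure D4:**
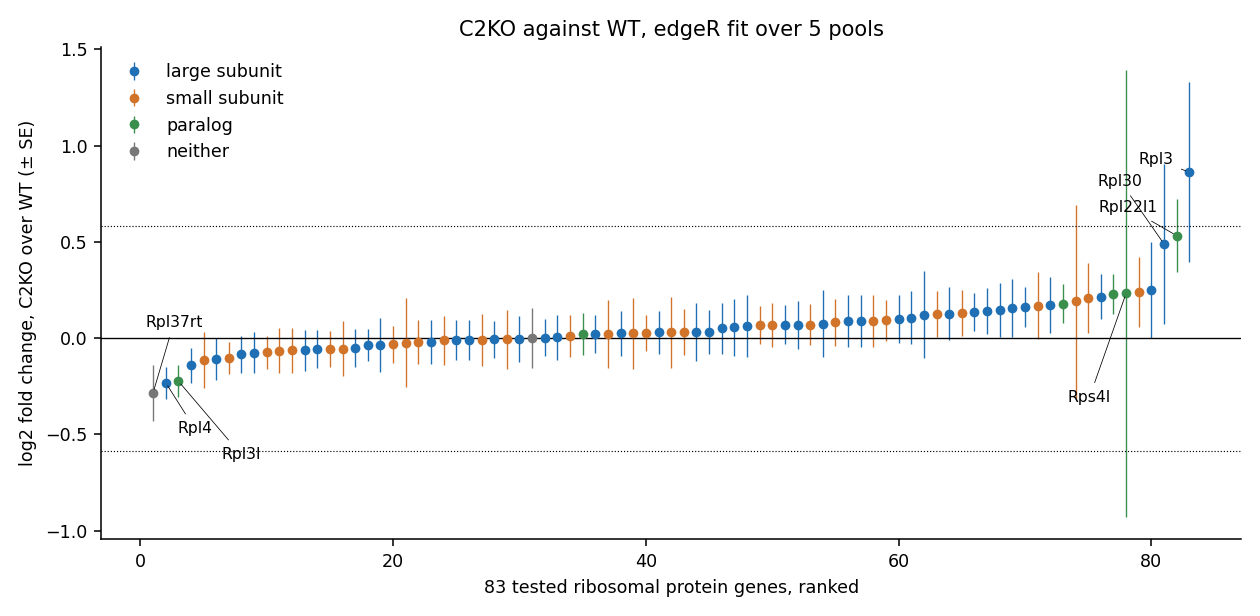
Log2 fold change, C2KO over WT, with its SE for the 83 tested genes, ranked, from the edgeR fit over 5 pools. Dotted lines mark a fold of 1.5 in each direction; Rpl3, at 0.86 with an SE of 0.47, is the gene beyond them and was not called.

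Rpl4 and Rpl3l were the 2 members lower in C2KO at an unadjusted p under 0.05. Rpl4 had 321, 313 and 298 CPM in WT pools 1 to 3 and 272 and 252 CPM in C2KO 740 and 2445. Single fibres ran from 259 to 401 CPM (median 314) in WT and from 211 to 336 CPM (median 260) in C2KO, so fibres overlapped and pools did not. The log2 fold change was -0.23 (SE 0.083, adjusted p = 0.458 by edgeR). Rpl3l had 312, 308 and 302 CPM in the WT pools and 263 and 258 CPM in C2KO 740 and 2445. Its fibres ran from 270 to 389 CPM (median 304) in WT and from 193 to 337 CPM (median 256) in C2KO. The log2 fold change was -0.22 (SE 0.083, adjusted p = 0.458 by edgeR). Within run 0092 the C2KO fibre had 337 CPM of Rpl3l, above the WT range of 275 to 333 CPM, and 274 CPM of Rpl4, inside the WT range of 259 to 324 CPM. With run as a covariate, where that 1 C2KO fibre sets the difference, the log2 fold change was 0.21 for Rpl3l and -0.07 for Rpl4.

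Rpl22l1, the paralog of an RNA-binding large subunit protein, was the 1 member higher at that p, and its high values lay in 1 C2KO pool. Pool values were 23.6, 22.8 and 29.4 CPM in WT, 44.9 CPM in C2KO 740 and 28.1 CPM in C2KO 2445. Fibres ran from 14.99 to 36.9 CPM (median 24.6) in WT, from 34.5 to 63.99 (median 45.1) in 740 and from 24.3 to 32.1 (median 28.3) in 2445. The 2445 fibres lay inside the WT range. The log2 fold change was 0.53 (SE 0.19, adjusted p = 0.457 by edgeR), and without the 740 pool it was 0.24 (adjusted p = 0.710). In run 0092 the C2KO fibre had 47.3 CPM against 23.4 to 36.9 CPM in WT. Rpl36al, whose paralog partner is Rpl36a, had WT pools at 73.6, 73.6 and 83.9 CPM, C2KO 740 at 88.7 and C2KO 2445 at 89.8 CPM. Fibres ran from 52.1 to 118 CPM (median 74.6) in WT and from 75.9 to 105.1 CPM (median 90.0) in C2KO, so they overlapped. Its log2 fold change was 0.23 (SE 0.10, adjusted p = 0.504 by edgeR).

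The paralog Rps27l had a log2 fold change of 0.18 (adjusted p = 0.572 by edgeR). Among the canonical genes of at least 10 CPM, the highest log2 fold changes were small. Rps15a had 0.24, Rpl10 0.22, Rps13 0.21, Rps27a, which makes a small subunit protein joined to ubiquitin, 0.17, and Rpl38 0.16. At the other end, after Rpl4, stood Rpl13a at -0.14, Rps28 at -0.11, Rpl7a at -0.11 and Rps15 at -0.10. Their adjusted p ran from 0.561 to 0.825 by edgeR.

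Rpl3 itself was low in all fibres and highest in C2KO 740. Its counts per fibre were 8 to 48 in WT, 0 to 30 in C2KO 2445 and 11 to 121 in C2KO 740. WT pools had 2.12, 1.35 and 1.80 CPM, C2KO 2445 had 1.52 CPM and C2KO 740 had 4.95 CPM. Within the 740 pool the highest values were 12.2 CPM in fibre 7, 9.11 CPM in fibre 4, 7.03 CPM in fibre 1 and 5.10 CPM in fibre 10. The fibroblast marker sums of those fibres were 5229, 1083, 63.8 and 442 CPM. Across the 10 fibres of that pool Rpl3 and the marker sum had a Spearman rho of 0.879, a description over fibres that share a library scaling. The log2 fold change was 0.86 (SE 0.47, adjusted p = 0.565 by edgeR). It fell to 0.44 (adjusted p = 0.695) without the 3 fibres of 740 above the WT marker range, and to -0.12 (adjusted p = 0.943) without the whole 740 pool. How much of the Rpl3 counts came from other cells was not tested.

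**Figure D5:**
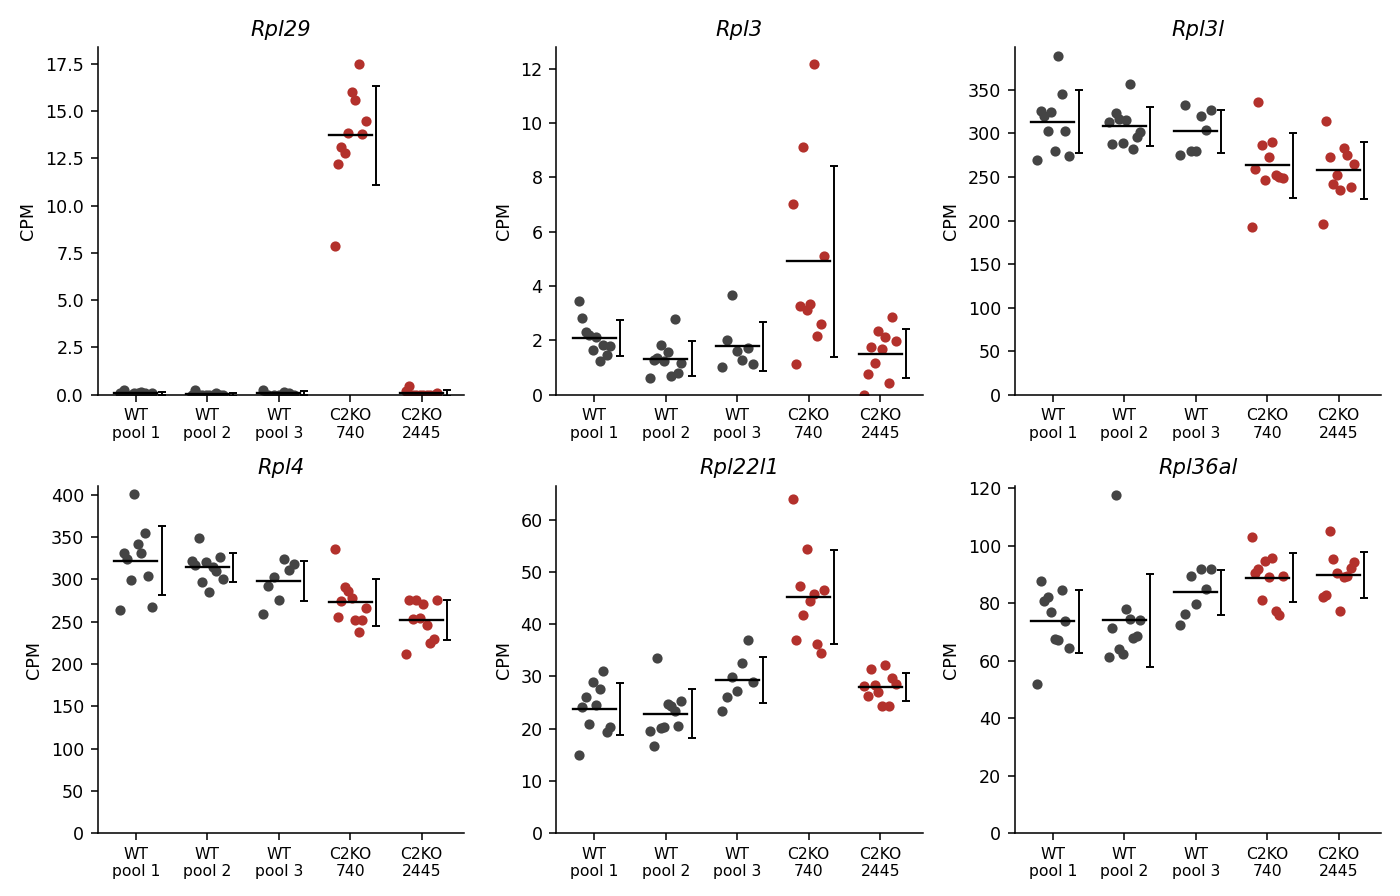
CPM of 6 genes in each of the 47 fibres, by pool; each axis starts at 0, lines are pool means and bars the SD over fibres. Rpl29 is above 7.8 CPM in all 10 fibres of C2KO 740 and below 0.48 CPM in the other 37, and Rpl22l1 is highest in the same pool.

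Rpl29, a small basic protein on the surface of the large subunit, separated the 2 C2KO pools completely. All 10 fibres of C2KO 740 had 67 to 155 counts of it (7.85 to 17.5 CPM, median 13.8). The other 37 fibres had 0 to 5 counts, and 22 of them had 0. The 740 fibres in order 1 to 10 had 7.85, 12.2, 13.1, 12.8, 13.8, 15.98, 15.6, 17.5, 13.8 and 14.5 CPM. Every one stood above the highest other fibre, which was a 2445 fibre with 0.475 CPM. Summed over fibres the level was 13.8 CPM in C2KO 740 and 0.0624 CPM in the rest, a ratio of 221. The 10 fibres of 2445, of the same genotype, had 8 counts in all, and the 27 WT fibres had 18.

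The 740 fibres came from several sequencing runs. Fibre 3 of the 740 pool, sequenced in run 0092, had 13.1 CPM, while the 7 WT fibres of that run had at most 0.257 CPM. Fibre 2, with 0.206 CPM of the fibroblast markers, had 12.2 CPM of Rpl29, and fibre 7, with 5229 CPM of them, had 15.6 CPM. Among all 17153 genes with a count, 10 were higher in every 740 fibre than in every other fibre. Rpl29 was the only member among them, and the only gene whose lowest 740 fibre was over 10 times the highest other fibre and above 1 CPM. No gene was set apart that far in any of the other 4 pools, in either direction. This criterion was chosen after Rpl29 was seen. Of its neighbours on chromosome 9, Acy1 had 8.34 to 9.11 CPM and Abhd14a 11.5 to 12.8 CPM over all 5 pools. Others were higher in C2KO 740. Abhd14b had 0.945 CPM there and 0.0176 to 0.129 CPM in the other 4 pools. Parp3 had 55.97 CPM there against 32.7 to 37.5 CPM, and Twf2 304 CPM against 224 to 244 CPM.

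Because 4 of the 5 pools held few counts, the filter on low counts kept Rpl29 (chr9:106429539-106431567, plus strand) out of the comparison. Without the filter its log2 fold change was 6.80 (SE 1.602, adjusted p = 0.356 by edgeR). Without C2KO 2445 it was 7.82, from C2KO 740 alone against the WT pools. That fit leaves out the C2KO pool whose level was near that of WT, so it cannot tell genotype from pool. The start of its coding sequence is shown with that of a copy, to make plain how alike they are. Capitals would mark differences and there were 0 in bases 1 to 60.
Rpl29: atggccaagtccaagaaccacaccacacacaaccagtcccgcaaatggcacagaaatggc
Rpl29-ps2: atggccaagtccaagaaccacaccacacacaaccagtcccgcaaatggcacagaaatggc
Rpl29-ps2 lies on chromosome 13 and was not a gene name in the files. What sets the 740 fibres apart at Rpl29 was not tested.

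Gnb2l1, which codes for the small subunit scaffold RACK1 and whose name falls outside the rule, had 57.98 ± 5.22 CPM in WT pools and 64.2 ± 9.83 CPM in C2KO pools, and was not called (log2 fold change 0.16, SE 0.12, adjusted p = 0.670 by edgeR).

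The wider translation machinery was examined by lists. None of 14 elongation factor genes, 36 initiation factor genes, 47 genes of ribosome assembly and rRNA synthesis and 32 genes of mTORC1 and the control of ribosomal protein mRNAs passed the test. Their median log2 fold changes were 0.02, 0.02, 0.05 and -0.03. At an unadjusted p under 0.05 the assembly list had 3 genes higher and 1 lower of 47, and the mTORC1 list 1 higher and 3 lower of 32, beside 6.2% and 4.13% of all genes. The initiation factor list was led by Eif1, a start codon selection factor, at 771 ± 140 CPM in WT pools and 837 ± 75.7 CPM in C2KO pools, and Eif4g2 at 711 ± 84.1 and 645 ± 75.1 CPM. The elongation factor list was led by Eif5a, with 502 ± 16.4 and 508 ± 27.7 CPM, and Eef2, the translocation factor, with 275 ± 47.3 and 261 ± 20.5 CPM. In the assembly list Ncl, a nucleolar protein, had 128 ± 6.95 and 135 ± 11.2 CPM, and Rrp12 79.7 ± 6.70 and 91.4 ± 23.1 CPM. In the mTORC1 list Cnbp, an RNA-binding protein, had 864 ± 63.7 and 937 ± 0.522 CPM, and Rragd, a Rag GTPase, 288 ± 13.1 and 262 ± 16.7 CPM.

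Genes of the mTORC1 list at an unadjusted p under 0.05 were named after their values were seen. Eif4ebp1 was higher (log2 fold change 0.37), and Tsc2 (-0.24), Eif4ebp2 (-1.49) and Rptor were lower. By edgeR the adjusted p was 0.407 for Eif4ebp1, 0.441 for Tsc2 and 0.458 for Eif4ebp2. Rptor is the scaffold of mTORC1. It stood at 24.2 ± 1.94 TMM-scaled CPM in WT pools and 15.7 ± 1.94 in C2KO pools, a log2 fold change of -0.63 (SE 0.13, adjusted p = 0.355 by edgeR). DESeq2 called it on the same pools (log2 fold change -0.62, adjusted p = 0.00349). The share of all genes that DESeq2 called was not counted. With fibres as replicates and run as covariate Rptor was at -0.16, a value set by the 1 C2KO fibre of run 0092.

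Many ribosomal protein mRNAs begin with a run of pyrimidines at their start site, through which mTORC1 and LARP1 control their translation. RefSeq start windows (GRCm38.p6, 25 bases on either side of the start, read in the direction of the gene) were matched for 57 of the 77 canonical genes. The letters CTTTCC were in 10 of the 57, or 17.5%, against 2.92% of 27025 genes with a window. CTCTTT was in 9, or 15.8%, against 2.25%. The shorter CTTCC, the other motif searched, was in 16, or 28.1%, against 12.4%. The motifs were searched in the sense direction only and can overlap each other. As examples, 30 bases around the start of 4 genes are given, with CTTTCC in capitals. They are Rpl35 (chr2:39005117-39005146, minus strand), Rpl28 (chr7:4792950-4792979), Rpl38 (chr11:114668565-114668594) and Rpl18 (chr7:45718056-45718085), the last 3 on the plus strand.
Rpl35: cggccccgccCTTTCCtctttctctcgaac
Rpl28: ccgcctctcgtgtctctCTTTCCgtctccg
Rpl38: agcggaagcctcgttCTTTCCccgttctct
Rpl18: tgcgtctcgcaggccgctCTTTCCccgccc
The levels of these 4 genes were 162, 86.1, 79.7 and 79.6 CPM per kb in WT pools. A match is a description of the letters, and translation was not measured here.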

How the data were processed

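RNA of single EDL fibres was sequenced, and each fibre has its own table of raw counts as deposited by the authors, made with featureCounts 1.5.2 on paired reads in the reverse strand setting, by exon and gene name. Per the submitters' notes the reads were aligned with HISAT2 2.0.5 to mm10 (UCSC annotation), and multi-mapping reads were not counted. Members were chosen by symbol. The members and gene lists were chosen with earlier results of these data known, and named genes followed a fixed rule (extremes of level and of fold change, paralog pairs, the most abundant gene of other lists).

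Here the deposited counts were summed over fibres into 5 pools and fitted with edgeR 4.0.16 (glmQLFit, TMM, filterByExpr) in R 4.3.3, with Benjamini-Hochberg adjustment over 12863 genes. The script was tested on simulated data. Fold changes come from that fit, and levels are CPM of all gene counts. Alternatives were RLE or library size scaling, DESeq2 1.42.0, limma 3.58.1 (voom), no filter, fibres as replicates with and without run, and leaving out each pool. Totals were 7648762 to 14606631 counts per fibre. Shared windows of 50 bases came from GENCODE vM21 transcripts. No genome sequence and no protein table were used here.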

Additional observations from a re-analysis of the deposited data

Results flagged for a closer look

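A fibre was singled out where its value stood apart from the rest of its pool by Dixon's gap test at the 95% level. Of 36 sets of fibres examined, 5 had such a value, in 3 distinct fibres, and chance gives about 1 in 20. WT pool 2 fibre 3 had 0.656% of its counts on ribosomal protein genes, against 0.476% in the next fibre and a pool median of 0.442%. The same fibre had 33.6 CPM of Rpl22l1 (next 25.3) and 118 CPM of Rpl36al (next 77.98), and its fast fibre marker sum, 255755 CPM, was the lowest of the WT fibres. C2KO 2445 fibre 1 had a large to small subunit ratio of 1.35, against 1.45 in the next fibre and a pool median of 1.49. WT pool 3 fibre 3 had 3.67 CPM of Rpl3, against 2.02 in the next fibre. Rpl29, which was outside the tested set, had 13.8 CPM in C2KO 740, above the WT level in all 10 fibres of that pool.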

How the results depend on the processing

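No paired analysis was possible because the pool numbers follow run and fibre names and tie no WT pool to a C2KO pool. Members called higher went from 0 to 1 of 80 with fibres as replicates (Rpl3), beside 4.78% of 10156 genes. Members called lower stayed at 0 in every alternative run. Without C2KO replicate 2, the 2445 pool, Rpl29 had a log2 fold change of 7.82, with C2KO 740 alone in its group. Other translation genes called went from 0 to 1 with DESeq2 (Rptor), where the share of all genes called was not counted. With fibres as replicates 3 of 130 were called, beside 4.78% of 10156 genes. Without C2KO replicate 2 the log2 fold change was 2.04 for Eef1a1 and -0.74 for Sesn1, and without C2KO replicate 1 it was -0.78 and 0.58. Without the 3 fibres above the WT marker range Eef1a1 was at -0.32. With fibres as replicates 9 of 80 members had an adjusted p under 0.05. Of these 6 were higher and 3 lower, beside 9.79% and 8.56% of 10156 genes. The log2 ratio of large to small subunits was -0.0282 on summed CPM and ran from -0.0278 to 0.0129 when a pool was left out. The summed level ran from -0.0940 to 0.0691 and the members' median log2 fold change from -0.03 to 0.12 over left-out pools. Of 383 alternative values of 30 named members, 351 kept direction and call, 1 gained a call (Rpl3, 0.85 with fibres as replicates) and 31 changed sign. The cause was not tested. The fit with run as covariate takes genotype from run 0092 alone, with 1 C2KO fibre against 7 WT fibres. Its log2 fold changes were -0.18 for Rpl10, 0.20 for Rpl13a, 0.21 for Rpl22, 0.15 for Rpl37rt and 0.21 for Rpl3l. They were 0.26 for Rplp0, 0.21 for Rplp2, 0.0607 for Rps15, -0.12 for Rps19bp1 and 0.13 for Rps25. With fibres as replicates Rplp0 was at 0.0043 and Rplp2 at 0.0069. Rps19bp1 was at -0.0120 by library size and -0.0063 without the filter, and Rps4l at -0.42 by voom. Without the 3 fibres above the WT marker range Rplp0 was at 0.0108 and Rps4l at -0.0758. When pools were left out in turn, Rpl3 ran from -0.12 (without C2KO 740) to 1.45, Rps27 from -0.15 to 0.47 and Rps4l from -2.54 to 1.12. Rpl36a ran from -0.0110 to 0.16, Rpl7l1 from -0.0491 to 0.0884, Rplp0 from -0.0668 to 0.0661, Rplp2 from -0.0501 to 0.0718, Rps19bp1 from -0.0697 to 0.0881 and Rps28 from -0.21 to 0.0136. A pool left alone in its group is assumed to vary like the others.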
